A study of Homo sapiens with 2 samples.

Results

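miR-197 is a human miRNA whose hairpin gives a 3p arm (hsa-miR-197-3p) and a 5p arm (hsa-miR-197-5p), and these 2 of the 2218 mature miRNAs in the deposited table are described here. They were chosen from their measured values: miR-197-3p had the highest ratio of QKI5 over GFP among the 200 most abundant miRNAs, and miR-197-5p is the other arm of the same hairpin. The levels, ratios, ranks and arm ratio of the members are therefore a description and carry no test.

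The libraries came from K562 cells transduced with a lentivirus that overexpresses QKI5 and, as the control, from K562 cells carrying a GFP lentivirus. K562 is a human erythroleukaemia line grown in suspension, and both cultures were kept in the same serum-containing medium. Small RNA was sequenced from 1 library in each group, and replicates are lacking for every difference. The promoter that drives QKI5, its level, and whether the transduced cells were a pool or a clone are not stated in the labels.

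A miRNA hairpin is cut from its primary transcript by Drosha in the nucleus and then by Dicer, which leaves a short duplex of the 5p and 3p strands. Usually 1 strand is loaded into an Argonaute protein and kept, and the other is degraded. The loaded strand finds its target mRNAs mainly through its seed, bases 2 to 8 from the 5′ end. miR-197-3p is known as a repressor of the tumour suppressor TUSC2 in lung cancer cells and as a miRNA carried by platelets. QKI5 is the isoform of Quaking, an RNA-binding protein, that resides in the nucleus, where it acts in splicing and has been tied to the processing of primary miRNAs.

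The mature sequences below are from RefSeq on GRCh38.p14, written 5′ to 3′ with the seed in capitals. The 2 arms of miR-197 come first, as the strands that were measured. miR-3132 is the other RefSeq miRNA with the seed of miR-197-5p, miR-1260a and miR-1260b are the abundant miRNAs nearest to miR-197-3p in C content, and miR-2392 has the next highest ratio.
miR-197-3p: uUCACCACcuucuccacccagc
miR-197-5p: cGGGUAGAgagggcagugggagg
miR-3132: uGGGUAGAgaaggagcucagagga
miR-1260a: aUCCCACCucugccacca
miR-1260b: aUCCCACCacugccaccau
miR-2392: uAGGAUGGgggugagaggug

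The strands of miR-197 differ sharply in base content. miR-197-3p is 22 bases long, and 12 of them are C and 1 is G. miR-197-5p is 23 bases long, with 14 G and 2 C. The hairpin gene MIR197 lies on the plus strand at chr1:109598893-109598967 in GRCh38.p14, is 75 bases long and has a G + C content of 62.7%. The authors mapped to hg19, and no position in that build is given here. In GENCODE release 29 the hairpin lies inside exon 9 of GNAI3, on the same strand, in a stretch annotated as untranslated. Exon and untranslated stretch are both long, annotated from 109592345 to 109618321. GNAI3 encodes a subunit of an inhibitory G protein. RNAfold gave the hairpin a minimum free energy of -41.4 kcal/mol, or -0.552 kcal/mol per base, against a median of -0.452 over 1562 RefSeq hairpins, of which 22.7% were more stable per base.

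Each mature strand of miR-197 occurred in 1 of the 1562 hairpins. No other mature miRNA among the 2369 searched in RefSeq came within 3 mismatches of either strand over an ungapped overlap of at least 18 bases. The nearest had 6 mismatches to miR-197-3p and 5 to miR-197-5p. None of the other mature sequences carried the seed UCACCAC of miR-197-3p. The seed GGGUAGA of miR-197-5p was shared with miR-3132, which had 0 reads in the QKI5 library against 4 in the GFP library.

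The values are reads per 1000000 reads of the library (RPM). The QKI5 library held 6553945 reads and the GFP library 23262340, 3.55 times as many, so that 1 read was worth 0.153 RPM in the QKI5 library against 0.0430 RPM in the GFP library. The blood miRNAs checked, among them the erythroid miR-451a and miR-144-3p and the leukocyte miR-142-3p and miR-223-3p, all had reads, and the 7 of them summed to 62173 RPM in the QKI5 library against 36643 RPM in the GFP library. Of these, miR-126-3p made up 38674 and 14362 RPM in the QKI5 and GFP libraries. Among the listed members, miR-451a and miR-144-3p were lower with QKI5, miR-451a at 2187 RPM against 2798 RPM with GFP, and miR-144-3p at 293 RPM against 548 RPM. The rest of the list was higher with QKI5. miR-486-5p was at 608 RPM against 528 RPM with GFP, and miR-210-3p at 144 RPM against 75.1 RPM. miR-142-3p and miR-223-3p had ratios of 1.17 and 1.04. The 8 listed markers of liver, muscle, neurons and epithelium summed to 348 RPM in the QKI5 library against 386 RPM in the GFP library. Almost all of that was miR-9-5p, at 332 RPM with QKI5 against 378 RPM with GFP. The epithelial miR-205-5p and miR-200b-3p had ratios of 3.55 (1.84 to 6.83) and 4.30 (2.24 to 8.34) at no more than 3.51 RPM, and the muscle miR-133a-3p had 6 reads with QKI5 and 2 with GFP. The planned muscle marker miR-1-3p, named miR-1 in the deposited values, was not among the 8. It was at 1.98 RPM with QKI5 against 0.172 RPM with GFP, a log2 ratio of 2.72. The liver miR-122-5p and the muscle miR-206 were at 0 in the QKI5 library, and the neuronal miR-124-3p was at 0 in the GFP library. The part of these miRNAs in the results on miR-197 was not tested.

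The 3p strand of miR-197 was abundant with QKI5 and modest with GFP. miR-197-3p had 5930 reads in the QKI5 library, or 905 RPM (95% exact Poisson interval 882 to 928), against 1668 reads in the GFP library, or 71.7 RPM (68.3 to 75.2). The intervals do not meet, and the level was 12.6-fold higher with QKI5 (95% exact conditional binomial interval 11.9 to 13.3). On the log2(RPM + 0.153) scale the ratio was 3.65. Such intervals cover counting error only, and with 1 library in each group the spread between cultures is unknown. At the level of the GFP library, the shallower QKI5 library would have held 470 reads of miR-197-3p. miR-197-3p made up 0.152% of the reads on listed miRNAs in the QKI5 library against 0.0108% in the GFP library.

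The 5p strand was close to the limit of detection. miR-197-5p had 6 reads in the QKI5 library, or 0.915 RPM (0.336 to 1.99), and also 6 reads in the GFP library, or 0.258 RPM (0.0947 to 0.561). The equal read counts stand for unequal levels because of the difference in depth. Its ratio was 3.55 (0.949 to 13.3), and its log2 ratio with the pseudocount was 1.38. That interval holds a ratio of 1 and also the ratio of 12.6 seen for miR-197-3p. At this depth the data thus separate miR-197-5p neither from no difference nor from a rise as large as that of the 3p strand.

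**Figure D1:**
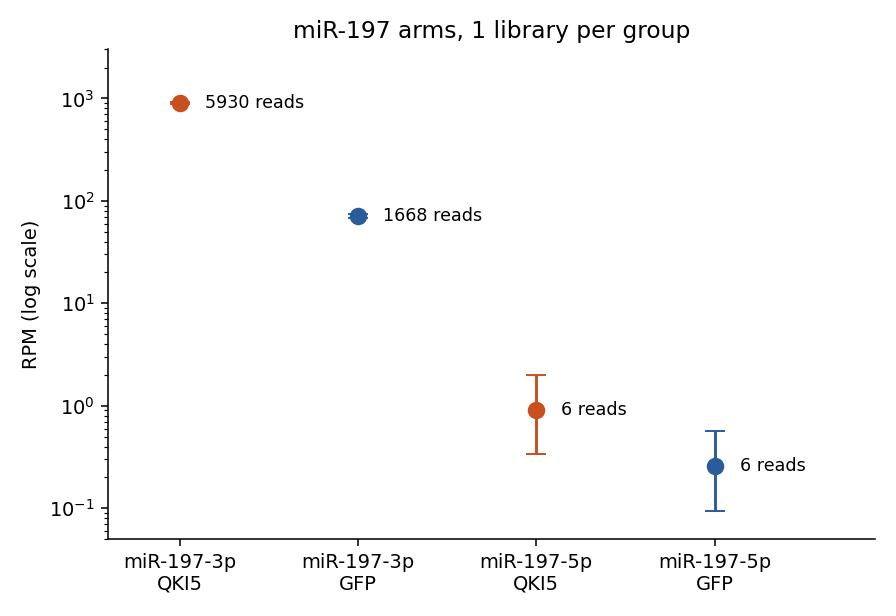
Level of each miR-197 arm in RPM on a log axis, in the QKI5 and GFP libraries, with the read count beside each point. Bars are 95% exact Poisson intervals for counting error. The intervals of miR-197-3p (905 RPM with QKI5, 71.7 RPM with GFP) are far apart, and those of miR-197-5p (0.915 and 0.258 RPM) overlap.

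Counted at a fold of at least 2, a log2 ratio of 1, 30 of the 200 most abundant miRNAs were higher with QKI5, which is 15.0% of them, and 14 were lower. miR-197-3p is 1 of the 30, a place that the choice of members fixed. Higher ratios made up 68.2% of the 44 calls as deposited, 77.4% with the columns scaled to equal sums over listed miRNAs, 47.4% under quantile normalization, 56.1% with the 10 most abundant miRNAs left out of the scaling, and 12.9% under scaling by a trimmed mean (TMM). TMM moved the median log2 ratio of the 200 to -0.52, against 0.06 as deposited, and miR-197-3p to 3.08. Tested on recovered reads, an exact binomial test, which compares these libraries and not the conditions, called 426 of 1995 miRNAs with a read at a Benjamini-Hochberg adjusted p under 0.05, or 21.4%, with 290 higher and 136 lower with QKI5.

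The next ratios among the 200 are given to place the member just inside its rule. miR-2392, a miRNA of the imprinted DLK1-DIO3 region, was at 329 RPM with QKI5 against 49.8 RPM with GFP, a ratio of 6.60 (6.14 to 7.10). The next 4 were miR-539-5p at a ratio of 4.0 (3.57 to 4.49), miR-423-3p at 3.90 (3.59 to 4.24), miR-660-5p at 3.13 (2.83 to 3.46) and miR-4286 at 3.13 (2.80 to 3.50). The 200 log2 ratios had a median of 0.06, a standard deviation across miRNAs of 0.86 and a lowest value of -2.71. miR-197-3p was rank 1 of the 200 as deposited and under the 6 alternatives of scaling and pseudocount. With the GC trend removed it was rank 1 of the 186 that had a mature sequence, which leave out miR-660-5p and miR-4286.

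Over all 1995 miRNAs with a read, miR-197-3p was rank 5 by log2 ratio. The 4 above it were far less abundant. miR-4485 had 92 reads with QKI5 and 7 with GFP, miR-1290 54 and 4, miR-4791 62 and 6, and miR-1246 106 and 16. miR-1246 and miR-4485 are known to overlap a spliceosomal RNA and a mitochondrial ribosomal RNA. By plain ratio 203 miRNAs exceeded miR-197-3p, of which 183 had 0 reads in the GFP library, and none of the 203 had more than 122 reads in the libraries together. miR-197-5p was rank 205 of the 1995, and 23.8% of the 1995 were at least 2-fold higher with QKI5.

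**Figure D2:**
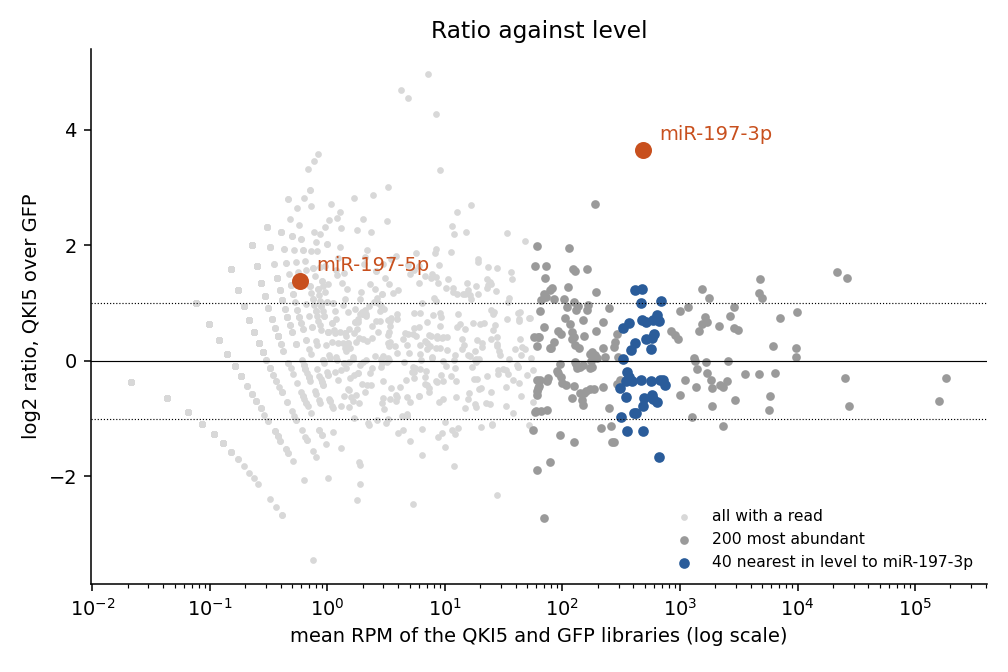
Log2 ratio of QKI5 over GFP against the mean RPM of the libraries (log axis), with 1 point for each miRNA with a read. Dotted lines mark 2-fold. miR-197-3p, at 3.65, lies above all 40 miRNAs nearest to it in level, while miR-197-5p, at 1.38, lies within the wide scatter of miRNAs with few reads. The place of miR-197-3p above the 40 was fixed by its choice as the highest ratio among abundant miRNAs.

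Among miRNAs of like level, the 3p strand lay above all 40 nearest and the 5p strand did not. For the 3p strand this was fixed by the choice of members. All 40 were among the abundant miRNAs in which miR-197-3p had the highest ratio, so only its distance above them is informative. The 40 miRNAs nearest to miR-197-3p in mean level lay between 306 and 744 RPM. Their log2 ratios ran from -1.66 for miR-154-3p to 1.25 for let-7e-5p around a median of -0.30, so that miR-197-3p lay 3.96 above the median. Of the 40, 3 were at least 2-fold higher with QKI5 and 3 at least 2-fold lower. The 3 higher were let-7e-5p (670 RPM with QKI5, 282 RPM with GFP), miR-24-3p (580 and 248 RPM) and miR-25-3p (921 and 448 RPM). When the 40 were taken by their GFP level alone, the highest log2 ratio was 1.59, for miR-192-5p. When they were taken by their QKI5 level alone, it was 1.25, again for let-7e-5p. The 40 by QKI5 level were also all among those abundant miRNAs, so none could exceed miR-197-3p.

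The 40 miRNAs nearest to miR-197-5p, at 0.532 to 0.649 RPM, rested on 8 to 27 reads in the libraries together. Their log2 ratios ran from -2.06 to 2.81 around a median of 0.55. Of these, 11 were at or above the 1.38 of miR-197-5p, and 12 were at least 2-fold higher with QKI5. The log2 ratio of miR-197-5p was 0.61 with a pseudocount of 1 RPM and 0.45 with a pseudocount of 1.53 RPM.

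By level, miR-197-3p was rank 53 in the QKI5 library and rank 174 in the GFP library. The difference of 121 places was the widest upward move among the 200, followed by miR-2392 with 107 places and miR-423-3p with 82. In the QKI5 library it stood below miR-485-3p (1045 RPM), miR-126-5p (986 RPM), miR-30b-5p (978 RPM) and miR-25-3p (921 RPM), and above miR-15b-5p (848 RPM), miR-107 (818 RPM), miR-301b (816 RPM) and miR-654-3p (790 RPM). The log2 ratios of these 8 lay between -0.97 and 1.04. In the GFP library it stood below miR-656-3p (73.7 RPM), miR-9-3p (73.6 RPM), miR-221-3p (72.7 RPM) and miR-4454 (72.3 RPM), and above miR-125b-5p (71.6 RPM), miR-539-3p (71.5 RPM), miR-1307-3p (71.4 RPM) and miR-132-5p (71.3 RPM). None of these 8 was 2-fold higher with QKI5, and their log2 ratios lay between -1.11 and 0.23. The levels of the 8 in the GFP library, at 71.3 to 73.7 RPM, all lay within the counting interval of miR-197-3p, so their order there is not resolved.

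**Figure D3:**
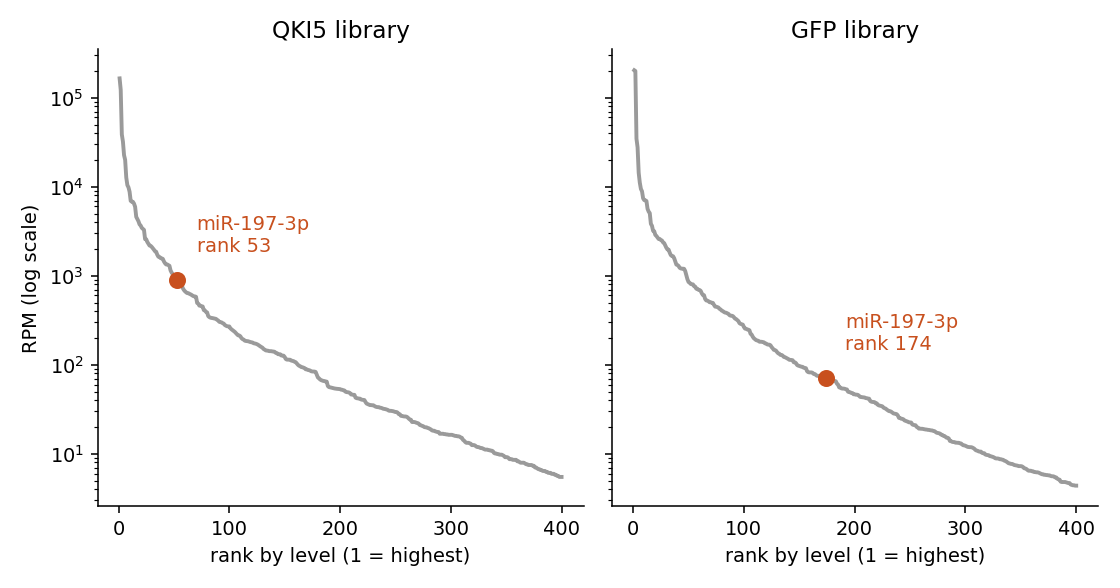
Level in RPM (log axis) of the 400 most abundant miRNAs of each library against their rank, with miR-197-3p marked. It stands at rank 53 and 905 RPM in the QKI5 library and at rank 174 and 71.7 RPM in the GFP library.

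The ratio between the arms of a hairpin does not depend on how the columns were scaled. miR-197 was almost wholly read from its 3p arm in each library. The 3p arm held 99.9% of the reads of the hairpin with QKI5 (95% exact Clopper-Pearson interval 99.78% to 99.96%) and 99.6% with GFP (99.22% to 99.87%). That is 988 reads of the 3p arm for each read of the 5p arm in the QKI5 library (454 to 2694) and 278 in the GFP library (127 to 759). The arm ratio was 3.56-fold higher with QKI5, with an exact conditional interval of 0.949 to 13.3 that holds 1. With 6 reads of the 5p arm in each library, the counts therefore do not separate a shift between the arms from none.

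Arm ratios of other hairpins also differed between the libraries. Of 315 hairpins with a read of each named arm in each library, 5 had a higher 3p share than miR-197 in the QKI5 library against 13 in the GFP library. The log2 change of the arm ratio was 1.83 for miR-197 without a pseudocount. Among the 315, 28 had a higher change, 60 had a change larger in size, and 145 changed by at least 2-fold in either direction, or 46.0%. miR-197 was not among the 156 hairpins with at least 10 reads of each arm in each library. Of those, 11 had a change larger in size than miR-197 and 52 changed by at least 2-fold, or 33.3%, with quartiles of -0.75 and 0.56. In 6 other hairpins with 3 to 11 reads of the 5p arm and at least 100 of the 3p arm in each library, the change lay between -1.42 for miR-615 and 0.47 for miR-152. Among the 156, the widest changes toward the 3p arm were in miR-361 (3.22), miR-652 (2.62), miR-432 (2.02), miR-642a (1.99) and miR-330 (1.96). Those toward the 5p arm were in miR-539 (-3.12), miR-369 (-2.96), miR-424 (-2.42), miR-188 (-2.40) and miR-628 (-2.35). Over the 315, the change ran from -4.79 to 3.26.

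The other arm was also looked up for the 30 miRNAs that were at least 2-fold higher with QKI5. It had at least 10 reads in the libraries together for 23 of them, miR-197-3p included. Its log2 ratio was above 0 for 16 of the 23 and at least 1 for 5, with a median of 0.36, and it lay below that of the first arm in 21. For comparison, 104 of the 200 were above 0, and 23.8% of the 1995 miRNAs with a read were at least 2-fold higher. The 5 of 23 are thus near the share over all with a read. Under TMM 9 of the 23 were above 0 and the median was -0.11. The 5 at 2-fold became 2 with a pseudocount of 1 RPM, 2 under quantile normalization and 1 under TMM. As deposited miR-197-5p, at 1.38, was 1 of the 5, with let-7e-3p (1.24), miR-185-3p (1.17), miR-193b-5p (1.5) and miR-574-5p (2.08). Since the first arms were chosen for a high ratio, a lower value in the other arm follows in part from that choice.

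**Figure D4:**
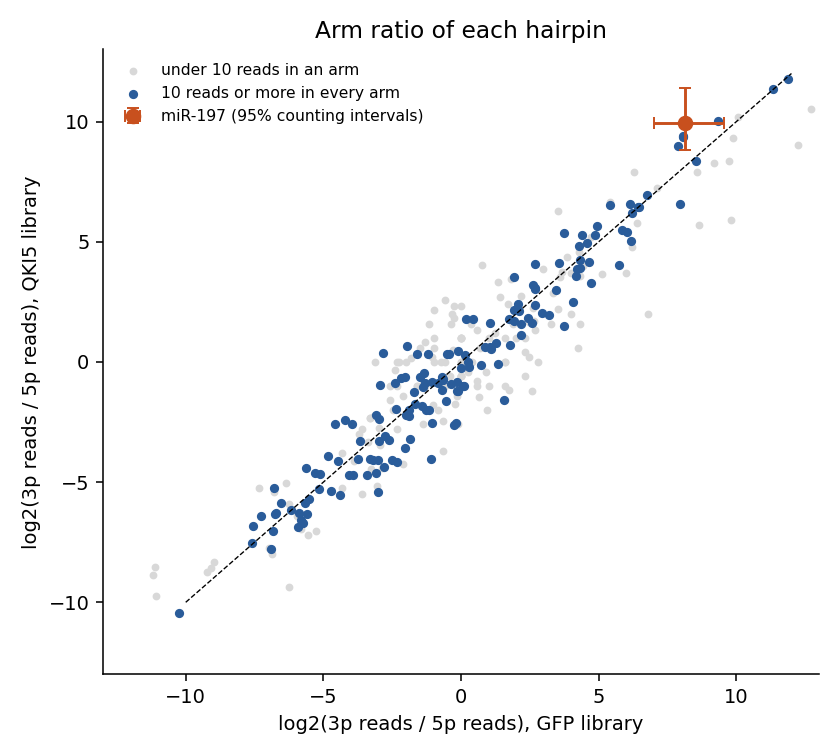
Log2 of 3p reads over 5p reads for each hairpin, QKI5 library against GFP library, with the dashed line at equal ratios. The bars on miR-197 are 95% exact counting intervals. miR-197 lies above the line, at 988 reads of the 3p arm per 5p read with QKI5 and 278 with GFP, and the interval of its arm ratio change, 0.949 to 13.3, holds 1.

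miR-197-3p is unusual in its bases among abundant miRNAs. A mature sequence was found for 186 of the 200, and for 1946 of all 2218. Its C content of 54.5% was rank 2 of the 186, against a median of 22.2%, its G content of 4.55% was rank 185, and its G + C content of 59.1% was rank 19, against a median of 45.5%. Across the 186, Spearman's rho with the log2 ratio was 0.20 for G + C, -0.06 for C and 0.20 for G. These describe miRNAs that share the same libraries, and without miR-197-3p the rho were 0.19, -0.07 and 0.22.

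None of the miRNAs of like composition compared here showed a ratio of that size, which the choice of members fixed. They were all among the abundant miRNAs in which miR-197-3p had the highest ratio. The comparison is therefore a description, and the part of base composition in that ratio was not tested. miR-1260a, with 55.6% C, was at 1629 RPM with QKI5 against 2062 RPM with GFP, a log2 ratio of -0.34. miR-1260b, with 52.6% C, was at 1340 RPM with QKI5 against 1335 RPM with GFP, a ratio of 1.0 (0.980 to 1.03). At 50% C, miR-7977 had a ratio of 1.03 (0.968 to 1.10) and miR-574-3p, which also has the G + C content of miR-197-3p, a ratio of 2.03 (1.88 to 2.19). The 20 miRNAs nearest in C content had log2 ratios of at most 1.27, for miR-92b-3p, around a median of 0.28. Of the 5 miRNAs with the same G + C content as miR-197-3p, miR-378a-5p had a log2 ratio of -0.65, miR-93-3p of 0.33, miR-127-3p of 0.88, miR-574-3p of 1.02 and miR-193b-3p of 1.23. The 20 nearest in G + C content had a median of 0.32, and the highest was the G-rich miR-2392 at 2.72. With a linear trend on G + C content removed, the log2 ratio of miR-197-3p was 3.39.

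**Figure D5:**
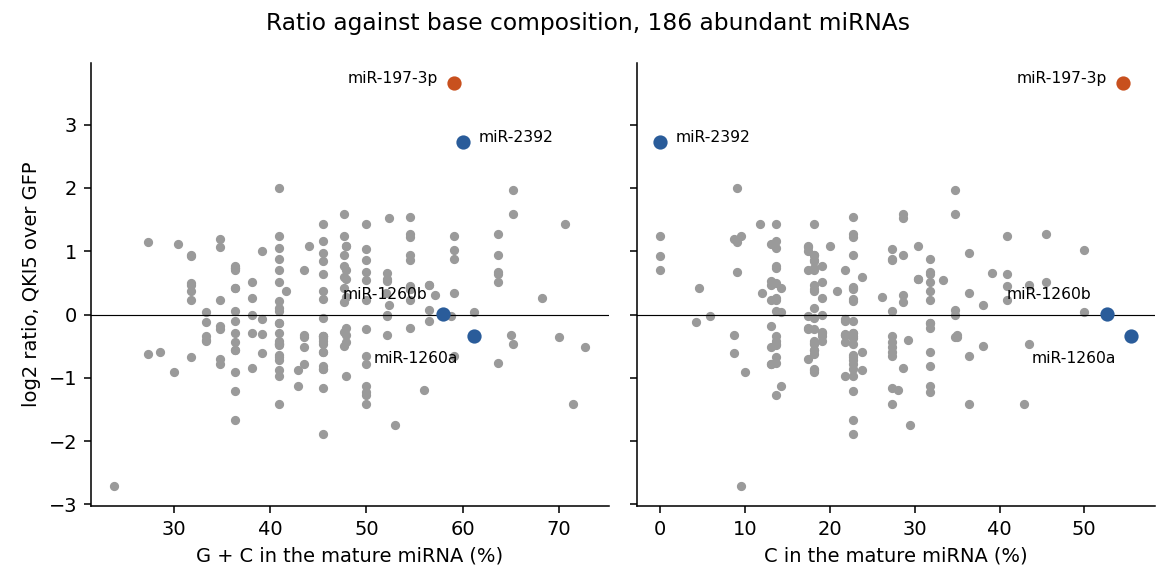
Log2 ratio of QKI5 over GFP against the percent of G + C (left) and of C (right) in the mature sequence of 186 of the 200 most abundant miRNAs. miR-197-3p, at 54.5% C, stands at 3.65, while the similarly C-rich miR-1260a and miR-1260b lie at -0.34 and 0.00, and miR-2392, with no C, lies at 2.72. miR-197-3p was chosen as the highest ratio among the 200, so no other point could lie above it.

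Quaking proteins are known to bind the hexamers ACUAAC and ACUAAU, often near a further UAAC or UAAU. The MIR197 hairpin held none of the 4, searched on the transcribed strand only. ACUAAC and ACUAAU each occurred in 0.768% of the 1562 hairpins, UAAC in 12.5% and UAAU in 15.2%, and the shorter forms lie inside the longer ones. This says only that the letters are not in these 75 bases, and the rest of the primary transcript was not searched.

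No annotated miRNA hairpin lies close to MIR197. The nearest on chromosome 1 are MIR7852, 1702 kb before it, and MIR11399, 3283 kb after it. miR-7852-3p had 1 read in each library. Further before, miR-553 had 0 reads with QKI5 and 3 with GFP. Further after, miR-320b, which has 2 hairpin genes, was at 31.4 RPM with QKI5 against 36.8 RPM with GFP, a ratio of 0.854 (0.730 to 0.996), and of the arms of MIR6736, miR-6736-3p had 1 read in each library and miR-6736-5p had 0. The miRNAs of MIR11399 and MIR137 were not analysed here.

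miRNAs often measured beside miR-197 in plasma and platelets were set next to it, since K562 cells carry features of megakaryocyte precursors. All 9 listed had a log2 ratio above 0, with a median of 0.74, against 104 above 0 and a median of 0.06 over the 200. The list was drawn up with earlier results of these data known, and miR-126-3p and miR-126-5p share a hairpin. Of the 9, 4 were at least 2-fold higher with QKI5, set beside 15.0% of the 200 and 23.8% of the 1995 with a read. miR-28-3p and miR-150-5p are not among the 200. Above 0 were 7 of the 9 under quantile normalization, 8 with the 10 most abundant miRNAs left out of the scaling and 6 under TMM, and 1, 2 and 0 were then at least 2-fold higher. Of the 200, 18, 23 and 8 were at least 2-fold higher under these settings, with median log2 ratios of -0.001, -0.05 and -0.52. With a pseudocount of 1 RPM, 3 of the 9 were at least 2-fold higher, against 30 of the 200. As deposited the 4 were miR-126-3p, made from the endothelial gene EGFL7, with a ratio of 2.69 (2.68 to 2.71), miR-24-3p with 2.34 (2.24 to 2.44), miR-146a-5p with 2.07 (1.86 to 2.29) and miR-28-3p with 2.05 (1.45 to 2.88). miR-21-5p had a ratio of 1.67, miR-191-5p 1.48, miR-126-5p 1.43 and miR-223-3p 1.04. miR-150-5p rested on 1 read with QKI5 and 2 with GFP. The highest of these ratios, 2.69, was well under the 12.6 of miR-197-3p. For the listed miRNAs among the 200, a ratio below that of miR-197-3p was fixed by the choice of members.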

How the data were processed

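Small RNA from K562 cells was enriched with a mirVana kit, made into libraries with an Ion Total RNA-Seq kit and read on an Ion Proton, per the labels' protocols. Bowtie 0.12.3 and the build hg19 are named in the submitters' processing notes. The annotation of miRNAs, the mismatches allowed and the use of multi-mapped reads and of strand were not given there. The values the authors deposited are RPM, although called RPKM: in each column 100.0% of the values above 0 were whole multiples of 1 step, within 0.1 of a read, so reads were recovered. There was 1 library per group, hence no test of the treatment. Ratios were computed as log2(RPM + 0.153), which understates low miRNAs, and plain ratios with exact 95% counting intervals. No molecular identifiers are recorded, so reads may be copies of the same molecule. The design had allowed for other units. The miRNAs named follow a fixed rule: neighbours in level, ratio, seed, position, composition and arm change, and a platelet list. Exceptions, chosen after their values were seen, are the named miRNAs within the 40, those above miR-197-3p over all with a read, the other arms, ties in composition and hairpins with few 5p reads. Members and lists were chosen with earlier results of these data known. Alternatives covered pseudocount, scaling, GC, filter, fold and neighbour number. The calculations were tested on simulated data. Tools were Python 3.11.15, numpy 2.4.6, scipy 1.17.1, pandas 2.3.3, matplotlib 3.10.9 and RNAfold 2.7.2.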

Additional observations from a re-analysis of the deposited data

How the results depend on the processing

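The log2 ratio of miR-197-3p, 3.65 as deposited, stayed above 3 under all 7 alternatives of pseudocount, scaling and GC, at 3.81 with the columns scaled to equal sums over listed miRNAs, 3.45 under quantile normalization, 3.55 with the 10 most abundant left out of the scaling, 3.08 under TMM and 3.39 with the GC trend removed. Its distance above the median of miRNAs of like level, 3.96, was 3.60 under quantile normalization, 3.68 with the GC trend removed, 3.40 over the 20 nearest, 3.65 over the 80 nearest, and 3.62 and 3.53 over the 40 nearest in GFP and in QKI5 level. Its rank of 1 became 3 among the 400 most abundant and 5 with no filter on low values, because less abundant miRNAs then entered. The count of 44 miRNAs at 2-fold was 15 among the 100 most abundant, 112 among the 400, 620 with no filter, 99 at a fold of 1.5 and 426 by the exact binomial test, an alternative chosen after seeing the data. The log2 ratio of miR-197-5p stayed within its counting interval, between 0.45 and 1.64, under the 7 alternatives. The log2 change of the arm ratio, 2.28 with the pseudocount, was 1.83 without one, 3.03 with 1 RPM and 3.18 with 1.53 RPM. A larger pseudocount raised it by lowering the log2 ratio of miR-197-5p, from 1.38 to 0.61 and 0.45. The counts themselves do not separate a shift between the arms from none. The 6 reads of miR-197-5p in each library limit every statement on it. No paired analysis was possible because each group had 1 library.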

Other observations

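The hairpin of miR-197 lies in an exon of a protein-coding gene, and the other abundant miRNAs were sorted by host in the same way after the values had been seen, from GENCODE release 29. Of the 186 of the 200 most abundant miRNAs with a RefSeq sequence, 8 had their hairpin inside an exon on the same strand, 51 inside an intron, 109 in neither, and 18 had hairpins of more than 1 class or no hairpin entry. The 109 include miR-17-5p, miR-18a-5p and miR-20a-5p, whose non-coding host gene MIR17HG was not counted as a host. They are therefore not all outside the exons and introns of any gene. The median log2 ratio of QKI5 over GFP was 0.63 for the exon group, 0.56 for the intron group and -0.12 for those in neither. Under TMM these were 0.06, -0.01 and -0.70, and with the columns scaled to equal sums over listed miRNAs the last was 0.03. Without miR-197-3p the median of the exon group was 0.52 over 7 miRNAs. Those 7 were miR-423-3p (1.96) and miR-423-5p (0.47) of NSRP1, which share a hairpin, miR-224-5p (1.08) and miR-452-5p (-0.48) of GABRE, miR-21-5p (0.74) of VMP1, miR-484 (0.52) of NDE1 and miR-10a-5p (-0.33) of HOXB4. In the exon group of 8, 5 including miR-197-3p lay in a stretch annotated as untranslated, and miR-224-5p, miR-452-5p and miR-21-5p did not. At least 2-fold higher with QKI5 were 3 of the 8 in exons, 12 of the 51 in introns and 12 of the 109 in neither, set beside 15.0% of the 200. miRNAs of the same host were counted separately, such as miR-99b-5p, miR-125a-5p and let-7e-5p of SPACA6, so the counts rest on fewer loci than miRNAs. The counts at 2-fold were 2, 1 and 3 under TMM, where 8 of the 200 were higher. They were 2, 6 and 7 under quantile normalization, where 18 of the 200 were higher. Without miR-197-3p, chosen for its ratio, the exon count as deposited was 2 of 7.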
